A study of Mus musculus with 16 samples.

Results

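The 39 genes described here are interferon-inducible genes and genes of class I antigen presentation in mouse myofibers, the multinucleated fibre cells that make up skeletal muscle. They were chosen by symbol from immunity GTPases, interferon-stimulated genes, STAT and IRF transcription factors and class I presentation genes. Earlier results of these data were known when they were chosen. They make up 39 of the 23221 symbols in the deposited tables. The study measured bulk RNA of such fibres, freed of adhering mononucleated cells, from a fast hindlimb muscle, the extensor digitorum longus, in 16 libraries. All mice were male and of strain C57BL/6, aged 4 months (young) or 22 months (old). Runners had a wheel to use at will for 5 weeks, and controls did not run. The 4 groups of 4 libraries were young controls (Yc4, Yc5, Yc7 and Yc8), young runners (Y1ex to Y4ex), old controls (Oc1 to Oc4) and old runners (O1ex to O4ex), and values below follow that order. The labels do not say whether libraries of a group came from separate mice, so p-values measure the spread between libraries.

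Interferons are cytokines that cells release on sensing viruses, bacteria or misplaced nucleic acid. Type I interferons act through the receptor of Ifnar1 and Ifnar2, the kinases Jak1 and Tyk2 and a complex that holds Stat2 and Irf9 and binds the interferon-stimulated response element (ISRE), whereas interferon gamma acts through Ifngr1 and Ifngr2, Jak1 and Jak2 on genes with the gamma-activated site (GAS). Both raise class I presentation, in which the Tap1 and Tap2 transporter and tapasin (Tapbp) load peptides onto a heavy chain (H2-K1 or H2-D1) bound to beta-2 microglobulin (B2m). Resting muscle fibres are known to show little class I protein, and inflamed muscle more.

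The members were split into 14 targets mainly of interferon gamma, 19 targets and factors mainly of type I interferon and 6 class I presentation genes. Libraries held 30.7 to 67.4 M assigned reads (M, 1e6 reads), with a median of 46.9 M. Reads of each library were divided by 1 size factor computed over all 16 libraries (normalised reads), and levels of different genes are compared only per kb of exon. All libraries were led by fibre genes: the 8 fast fibre markers summed to between 4891609 and 9596924 normalised reads. Several defining immune cell markers were at or near 0 and others were present. Ptprc, the common leukocyte gene, had reads in 2 of 16 libraries (at most 25.1) and the complement gene C1qa in 2 (at most 16.5), and Adgre1, Cd3g, Cd8a, Cd4, Ms4a1 and Ly6g had no row. The T cell receptor gene Cd3e had 23.01 to 599 reads, with a read in every library, and the 11 T and NK cell markers summed to between 37.3 and 599. Cd68, of macrophages and other cells with lysosomes, had 230.4 to 2293 reads, the lysozyme gene Lyz2 0 to 396 and the macrophage receptor gene Mrc1 0 to 356. In bulk RNA, fewer cells of a type and less RNA per cell cannot be told apart.

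The levels of single members spanned a wide range within each class. B2m, the light chain of class I, had the highest mean over the 16 libraries (2063 normalised reads per kb), followed by the heavy chain gene H2-D1 (2005), the immunity-related GTPase Irgm2 (1547) and its relative Igtp (860.3). Irf1, the transcription factor that interferon gamma induces, had 731. The most abundant type I target was Ifi27, a small membrane protein gene, at 699.7 reads per kb. Classical type I targets lay below these: the ubiquitin-like modifier Isg15 had 49.3, the translation inhibitor Ifit1 37.1, the antiviral enzyme viperin (Rsad2) 14.8 and Ifi44 2.35 reads per kb. Members of the other classes lay as low, among them the peptide transporter genes Tap2 (37.3) and Tap1 (8.63) and the effector GTPase Iigp1 (32.0). A read was present in all 16 libraries for 17 of the 39 members: 6 of the 14 gamma targets, 6 of the 19 type I genes and 5 of the 6 class I genes.

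**Figure D1:**
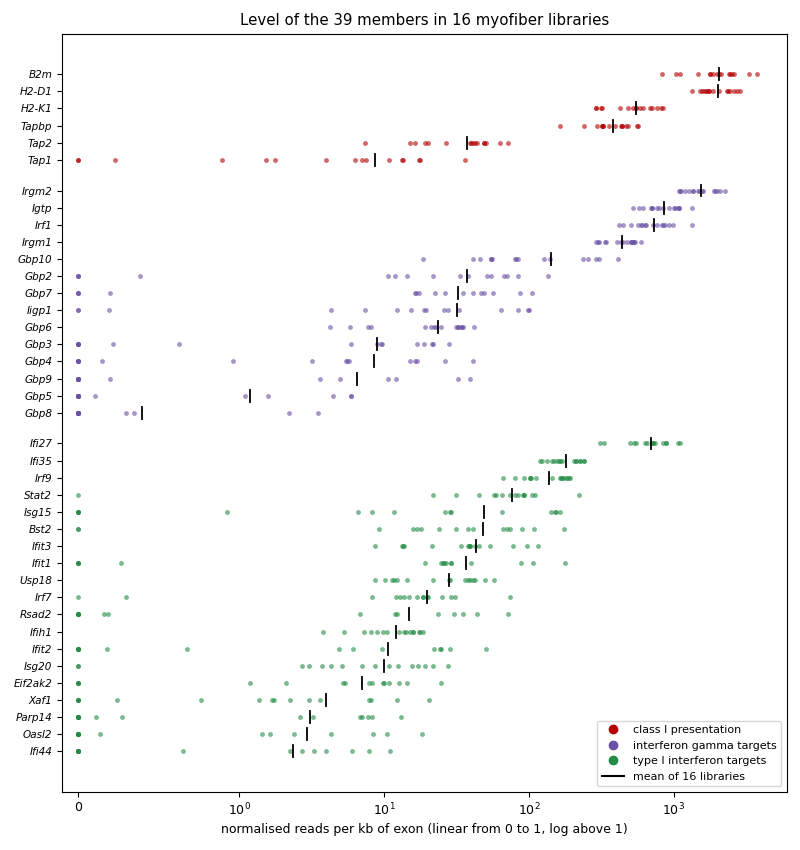
Normalised reads per kb of exon (horizontal axis, linear from 0 to 1 and logarithmic above 1) of the 39 members (rows, grouped by class), with 1 point per library for 16 libraries and a bar at their mean. B2m, H2-D1 and Irgm2 have the highest means, from 1547 to 2063, and 13 of the 19 type I genes have at least 1 library at 0.

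Some of the members hold the core letters of these elements next to their start sites. RefSeq windows (GRCm38.p6) from 250 bases before to 50 after a start site were at hand for 29 of the 39 members, with none for Gbp10 or Ifi27. The cores of the ISRE (GAAA, any 2 bases, GAAA) and of the GAS (TTCNNNGAA) were searched on both strands. The ISRE core was in 16 of the 29 windows (55.2%), against 3.44% of the 32851 windows of all genes, and the GAS core in 10 (34.5%), against 8.3%. By class, the ISRE core was in 7 of 8 gamma windows, 8 of 16 type I windows and 1 of 5 class I windows, and the GAS core in 5, 5 and 0 of them. Both cores occurred in 6 member windows, in Igtp, Irgm2, Gbp5, Gbp7, Bst2 and Eif2ak2 (in Bst2 they overlap), against 0.454% of all windows. The windows of the 8 members that hold a core and whose levels are given library by library below are shown in lower case, with the cores of either strand in capitals.

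Igtp (chr11:58199306-58199605, plus strand): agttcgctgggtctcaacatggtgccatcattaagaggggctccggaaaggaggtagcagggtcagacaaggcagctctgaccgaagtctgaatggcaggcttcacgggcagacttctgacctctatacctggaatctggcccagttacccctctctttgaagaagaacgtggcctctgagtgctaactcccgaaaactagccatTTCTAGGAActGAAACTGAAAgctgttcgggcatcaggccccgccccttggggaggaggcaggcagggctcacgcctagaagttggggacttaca
Irgm2 (chr11:58214727-58215026, plus strand): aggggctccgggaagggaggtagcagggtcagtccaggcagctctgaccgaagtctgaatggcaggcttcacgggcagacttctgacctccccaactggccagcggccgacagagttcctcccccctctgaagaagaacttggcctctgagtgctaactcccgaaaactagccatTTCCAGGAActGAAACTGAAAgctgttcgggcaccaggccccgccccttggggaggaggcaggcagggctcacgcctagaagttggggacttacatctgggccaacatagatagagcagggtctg
Irf1 (chr11:53769764-53770063, plus strand): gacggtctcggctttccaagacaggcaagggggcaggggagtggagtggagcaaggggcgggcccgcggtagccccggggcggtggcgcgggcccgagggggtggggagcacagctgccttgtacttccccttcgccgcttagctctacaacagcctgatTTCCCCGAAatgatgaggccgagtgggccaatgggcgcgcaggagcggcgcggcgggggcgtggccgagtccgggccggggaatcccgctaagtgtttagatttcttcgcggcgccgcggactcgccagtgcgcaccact
B2m (chr2:122147437-122147736, plus strand): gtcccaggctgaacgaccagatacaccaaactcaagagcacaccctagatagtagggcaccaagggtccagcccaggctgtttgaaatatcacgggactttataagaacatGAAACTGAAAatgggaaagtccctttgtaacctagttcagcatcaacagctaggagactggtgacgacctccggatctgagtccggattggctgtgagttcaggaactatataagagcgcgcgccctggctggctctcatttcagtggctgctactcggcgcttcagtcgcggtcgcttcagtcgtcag
Ifi35 (chr11:101448162-101448461, plus strand): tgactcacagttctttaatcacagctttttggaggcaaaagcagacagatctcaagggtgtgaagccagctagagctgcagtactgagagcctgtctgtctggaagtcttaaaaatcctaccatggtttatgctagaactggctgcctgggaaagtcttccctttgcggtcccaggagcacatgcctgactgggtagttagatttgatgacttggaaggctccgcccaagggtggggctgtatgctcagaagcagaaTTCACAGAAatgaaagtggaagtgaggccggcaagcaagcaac
Isg15 (chr4:156200769-156201068, minus strand): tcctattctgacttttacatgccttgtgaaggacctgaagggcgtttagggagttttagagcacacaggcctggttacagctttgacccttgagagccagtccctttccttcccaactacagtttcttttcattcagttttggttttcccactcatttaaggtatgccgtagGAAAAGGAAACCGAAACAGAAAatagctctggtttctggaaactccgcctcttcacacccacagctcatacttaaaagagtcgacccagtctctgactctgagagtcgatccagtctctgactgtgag
Ifit1 (chr19:34640639-34640938, plus strand): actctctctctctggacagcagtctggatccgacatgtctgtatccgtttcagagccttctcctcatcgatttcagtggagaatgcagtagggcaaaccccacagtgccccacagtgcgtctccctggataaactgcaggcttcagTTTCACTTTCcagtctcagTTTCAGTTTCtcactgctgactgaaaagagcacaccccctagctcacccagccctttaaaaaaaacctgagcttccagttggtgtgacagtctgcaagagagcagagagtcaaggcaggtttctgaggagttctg
Rsad2 (chr12:26456403-26456702, minus strand): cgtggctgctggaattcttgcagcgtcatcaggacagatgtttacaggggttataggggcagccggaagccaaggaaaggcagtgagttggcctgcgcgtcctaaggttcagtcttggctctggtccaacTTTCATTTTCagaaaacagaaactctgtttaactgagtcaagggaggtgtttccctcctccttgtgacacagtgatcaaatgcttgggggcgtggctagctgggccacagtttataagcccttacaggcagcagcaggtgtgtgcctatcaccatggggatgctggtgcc

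Counted from the start site at 0, the Igtp window holds the GAS core TTCTAGGAA at -45 and the ISRE core GAAACTGAAA at -34, and the Irgm2 window holds TTCCAGGAA at -75 and GAAACTGAAA at -64. In both genes the ISRE core begins 11 bases after the GAS core begins, with the same bases between them. Irf1 has 1 GAS core (TTCCCCGAA at -90) and no ISRE core, and Ifi35, a gene of an interferon-induced leucine zipper protein, has a GAS core after its start (TTCACAGAA at 7). B2m has 1 ISRE core (GAAACTGAAA at -139). Isg15 holds 3 ISRE cores that overlap each other, the most of any member window (GAAAAGGAAA at -78, GAAACCGAAA at -72 and GAAACAGAAA at -66). On the other strand Ifit1 holds 2 (read here as TTTCACTTTC at -104 and TTTCAGTTTC at -85) and Rsad2 holds 1 (TTTCATTTTC at -120). The windows of H2-K1 and Tapbp hold neither core, nor do those of H2-D1, Tap1, Ifi44, Oasl2, Xaf1, Irf7 and Irf9. A match describes letters, and no match says only that these letters are not in this window. The window of Irgm2 lies 15359 bases and that of Tapbp 3579 bases from the start of the gene in GENCODE M21.

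Each pair of groups was compared in its own deposited table, whose log2 values are variance-stabilised and compress low levels. Genes at least 1 above the floor (the value without reads) in at least 4 libraries were tested with limma over all genes, and an adjusted p under 0.05 is a call. Of the members, 1 was called in 1 comparison, running at 4 months. Gbp10, an interferon-inducible guanylate-binding protein of the family that attacks vacuoles of intracellular pathogens, had 71.8, 214, 309 and 179 reads in the young controls and 1125, 1186, 918 and 984 in the young runners. Every young runner lay above every young control. The group means were 1054 ± 124 and 194 ± 98 normalised reads (SD, n = 4), a ratio of 5.44, and Gbp10 rose by 1.81 ± 0.24 (SE) on the deposited log2 scale (limma, adjusted p = 0.019). It was 1 of 24 members that passed the filter on low values, while 81 of 10624 genes tested (0.762%) were called, 30 higher and 51 lower. In old mice the same gene had 328, 211, 158 and 546 in the old controls and 1590.4, 315, 213 and 495 in the old runners. O1ex stood above all other libraries, and the remaining old runners lay within the range of the old controls (difference 0.48 ± 0.36, adjusted p = 0.526).

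The Gbp10 call depended on single libraries, and its reads are hard to assign. Without Y2ex the adjusted p was 0.0985, without Y4ex 0.0691, without Yc5 0.0544, without Yc7 0.0664 and without Yc8 0.0524, while the difference stayed between 1.60 and 2.45 over all 16 alternatives. Gbp10 (mm10 chr5:105215699-105239533, GENCODE M21) lies in a cluster of near-identical genes: of the 50-base stretches of its transcripts, 84.1% also occur in transcripts of other genes, 73.3% in Gbp6 and 72.1% in Gm43302, a gene model that overlaps both and has no row in the tables. Of the stretches of Gbp6 (chr5:105270702-105293698), 70.7% occur elsewhere. How reads with several matches were counted is not given in the sources used here, so the split between both genes is uncertain. The sum of Gbp6 and Gbp10 was 197 to 334 reads in young controls and 953 to 1380.5 in young runners, without overlap. Most of it was Gbp10 (mean of 1054 in young runners, against 155 for Gbp6), so the sum largely repeats the Gbp10 values. Reads of Gm43302 could not be added.

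Gbp6 itself had 125, 48.7, 25.2 and 46.6 reads in the young controls and 204, 194, 34.8 and 186 in the young runners (difference 0.56 ± 0.30, adjusted p = 0.357). The young runner Y3ex lay among the controls and the other 3 runners above them. In old mice Gbp6 had 114, 192, 147 and 137 in the old controls and 248, 133, 203 and 210.4 in the old runners, with overlapping groups. Between control groups the difference was 0.49 ± 0.21 (adjusted p = 0.413).

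The class I genes Tapbp and B2m had the next smallest p in young runners, without passing the threshold. Tapbp, the tapasin that bridges the peptide transporter and the heavy chain, had 867, 1187, 1077 and 1162 reads in the young controls and 2034, 1567, 1586 and 1744 in the young runners. All young runners were above all young controls (difference 0.60 ± 0.16, adjusted p = 0.106). Tapbp had 593, 1183, 1586 and 1425 in the old controls and 2058, 1292, 1159 and 1698 in the old runners, where groups overlapped (difference 0.33 ± 0.23). Of the stretches of Tapbp (chr17:33915899-33929292), 20.3% match the antisense gene Gm19412, which these libraries without strand cannot separate.

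B2m (chr2:122147686-122153083) had 1615, 886, 719 and 953 reads in the young controls and 2823, 1764, 1525 and 1703 in the young runners. The young groups overlapped only through Yc4, which exceeded the lowest runner (difference 0.81 ± 0.25, adjusted p = 0.147, and 0.0494 without Yc4). In old mice B2m had 1273, 2154, 3212 and 1819.8 in the old controls and 2075, 1531, 2092 and 2246 in the old runners, and the groups overlapped (difference -0.02 ± 0.22). Between the controls of both ages B2m differed by 0.85 ± 0.27 (adjusted p = 0.275).

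H2-K1 (chr17:33996017-34000347) had 929, 1252, 852 and 934 reads in the young controls and 2484, 1605, 855 and 1533 in the young runners, with Y3ex among the controls (difference 0.54 ± 0.26, adjusted p = 0.312). It had 2075, 1797, 2382 and 1421 in the old controls and 1723, 1617, 2244 and 2006 in the old runners. Every old control lay above every young control, and the difference of 0.79 ± 0.18 had the smallest p of the members in that comparison (adjusted p = 0.162). H2-D1, the most abundant heavy chain gene per kb, had 5297, 7034, 6275 and 4367 reads in the young controls and 7334, 4149.6, 3451 and 4069 in the young runners, and 4480.0, 4295, 6066 and 4786 in the old controls and 3891, 6733, 6003 and 4502 in the old runners. Its groups overlapped in every comparison, and its differences were -0.30 ± 0.23 with running at 4 months and -0.18 ± 0.18 between controls. H2-K1 and H2-D1 share 4.08% and 5.44% of their stretches with each other, so reads of conserved parts can be split between them.

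Among the gamma targets, Igtp and Irgm2, which encode GTPases that act on pathogen vacuoles, overlap each other on chromosome 11 (chr11:58199556-58207591 and chr11:58199618-58222782) and share 11.8% of the stretches of Igtp. Igtp had 1429, 1544, 1231 and 1157 reads in the young controls and 2207, 1698, 1431 and 1414 in the young runners, and 2069.6, 2719.9, 2165 and 1873 in the old controls and 2212, 2025, 1052 and 1605 in the old runners. Every old control was above every young control, whereas O3ex lay below all of the young controls (controls 0.63 ± 0.16, adjusted p = 0.209, running in old mice -0.32 ± 0.19).

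Irgm2 had 4039, 4081, 6940.1 and 5482 reads in the young controls and 7697, 8308, 5777 and 7149 in the young runners. Yc7 overlapped the runners (difference 0.50 ± 0.20, adjusted p = 0.236). With 5832, 4378, 5030.2 and 5406 in the old controls and 4984, 7385, 4701 and 4157 in the old runners, old runners other than O2ex lay below all young runners (old minus young runners -0.43 ± 0.18, adjusted p = 0.982). Irgm1, a regulatory GTPase of the same family, differed by 0.31 ± 0.19 with running at 4 months and 0.29 ± 0.21 between controls, with overlapping groups.

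Iigp1, an effector GTPase, was low and uneven. It had 0, 43.3, 25.2 and 150.1 reads in the young controls and 376, 110.0, 1.12 and 191 in the young runners, and 113, 161, 493 and 89.8 in the old controls and 72.1, 0, 572 and 583 in the old runners. Each group other than the old controls held a library at or near 0 (controls 0.81 ± 0.34, adjusted p = 0.405).

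Irf1 (chr11:53770014-53778374) had 2358, 1655, 3314 and 3363 reads in the young controls and 2029, 2508, 2573 and 1788 in the young runners, groups that overlapped (difference -0.21 ± 0.23). It had 3662, 5313, 3486 and 3939.8 in the old controls and 3027, 2841, 2248 and 2392 in the old runners. Each old control was above each old runner and above each young control. The difference with running in old mice was -0.56 ± 0.15, the smallest p of the 20 members tested there (adjusted p = 0.136), and that between controls 0.61 ± 0.22 (adjusted p = 0.332). These comparisons share the old controls.

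Of the 10 type I genes tested with running at 4 months, Ifi27 had the smallest p and Stat2 the largest difference, and none passed. Ifi27 (chr12:103434211-103440239) had 808, 453, 484 and 730.5 reads in the young controls and 1307, 1056, 1294 and 785 in the young runners. The lowest young runner, Y4ex, lay below the highest control (difference 0.69 ± 0.22, adjusted p = 0.163). In old mice Ifi27 had 1095, 1582, 1039 and 935 in the old controls and 1612, 1239, 1048 and 956 in the old runners, all above every young control. The difference between controls was 0.70 ± 0.20 (adjusted p = 0.241).

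Ifi35 (chr11:101448407-101458698) had 205, 279.5, 414 and 391 reads in the young controls and 392, 356, 413 and 366 in the young runners, and 269, 257, 366 and 290.3 in the old controls and 229.6, 250.4, 282 and 213 in the old runners. All old runners were below all young runners (difference -0.33 ± 0.13, adjusted p = 0.982). The factors that carry the type I signal overlapped between all groups compared. With running, Irf9 differed by 0.19 ± 0.27 in young and -0.39 ± 0.19 in old mice, and Stat2 had 707 ± 425 reads in young controls and 360.1 ± 249.8 in young runners (difference -1.0002 ± 0.59, adjusted p = 0.406), with a difference of -0.12 ± 0.26 in old mice. Y3ex had no Stat2 read, while the other young runners had 387 to 552. The RNA sensor Ifih1 differed by 0.08 ± 0.25 and -0.04 ± 0.16, and Usp18, a brake on the type I receptor, by 0.18 ± 0.24 and -0.14 ± 0.21. The other 7 members tested at 4 months were Gbp2 (0.45 ± 0.39), Gbp7 (-0.33 ± 0.65), Ifit1 (0.38 ± 0.38), Ifit3 (0.22 ± 0.22), Irf7 (-0.42 ± 0.27), Parp14 (0.68 ± 0.36) and Tap2 (0.30 ± 0.31), with overlapping groups and adjusted p of 0.353 or more.

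**Figure D2:**
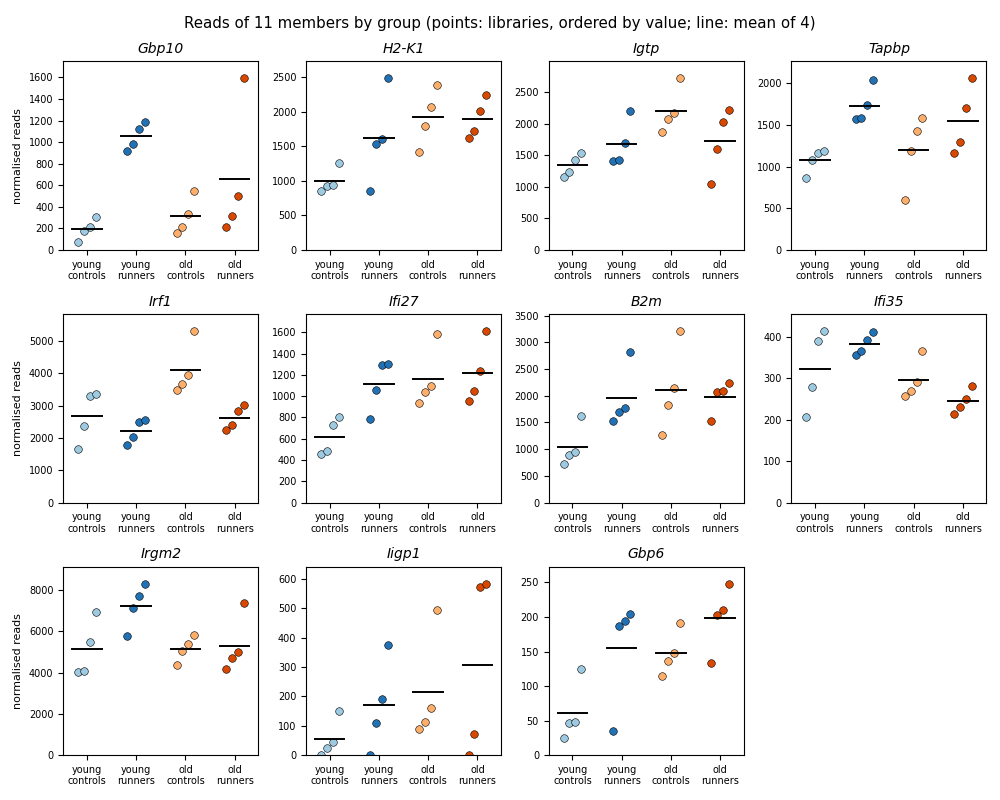
Normalised reads (vertical axes, each from 0) of 11 members in the 4 groups, with 1 point per library ordered by value and a line at the mean of 4. Young runners lie above young controls in Gbp10 and Tapbp, old controls above young controls in H2-K1, Igtp, Irf1 and Ifi27, and Y3ex apart from the other young runners in Gbp6. The share of all genes whose groups separate in this way was not counted.

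Over the members that passed the filter, most differences were positive in both comparisons with young controls. In young runners 19 of 24 had a positive difference, with a median of 0.31 against 0.01 over all genes tested. At an unadjusted p under 0.05, 5 were higher (Gbp10, Tapbp, B2m, Ifi27 and Irgm2) and none lower, where 8.85% of all genes were higher and 17.4% differed either way. In old against young controls 15 of 19 were positive (median 0.33 against -0.01), none passed, and 11 of 9831 genes did (0.112%). Unadjusted, 7 were higher (H2-K1, Igtp, Ifi27, B2m, Irf1, Iigp1 and Gbp6) and none lower, against 5.43% of all genes higher and 11.2% either way. These comparisons use the same young controls, so a low value there moves both. A member could pass the filter through 1 group alone, so the counts describe and do not test. Groups without overlap were counted for members only and not over all genes, so they describe as well. By mean normalised reads, which use no filter, 32 of the 39 members were higher in each of these comparisons, against 43.0% and 39.3% of all genes with a read.

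In the comparisons without young controls the counts lay nearer to those of all genes. With running in old mice 8 of 20 members tested were positive (median -0.02 against 0.03), none passed where 12 of 9379 genes did (0.128%), and 1, Irf1, had an unadjusted p under 0.05, against 17.4% of genes. Between old and young runners 12 of 20 were positive (median 0.04 against 0.00). None passed where 2 of 9387 genes did (0.0213%), and Ifi35 and Irgm2 had an unadjusted p under 0.05, against 4.91% of genes. By mean reads 21 of 39 members were higher in the first and 21 in the second, where 52.3% and 48.8% of all genes were.

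A difference of the running effect between ages was tested in 1 model of both exercise tables. These tables were stabilised separately, with floors of 7.6867 (old) and 6.7301 (young), and the old one compresses low levels more. Equal fold changes of low members therefore need not give equal differences, and the model takes up only a shift of level. The part of this in the counts below was not tested. No member passed, nor did any of the 9354 genes (0%). Of 19 members tested, 16 had a lower difference with running in old than in young mice, in either sign (median -0.35 against 0.03 over all genes). At an unadjusted p under 0.05 there were 4 such members, against 6.25% of all genes either way: Gbp10 (-1.33 ± 0.46, adjusted p = 0.711), B2m (-0.83 ± 0.35), Ifi27 (-0.64 ± 0.28) and Igtp (-0.60 ± 0.27), the last 3 with adjusted p = 0.788.

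**Figure D3:**
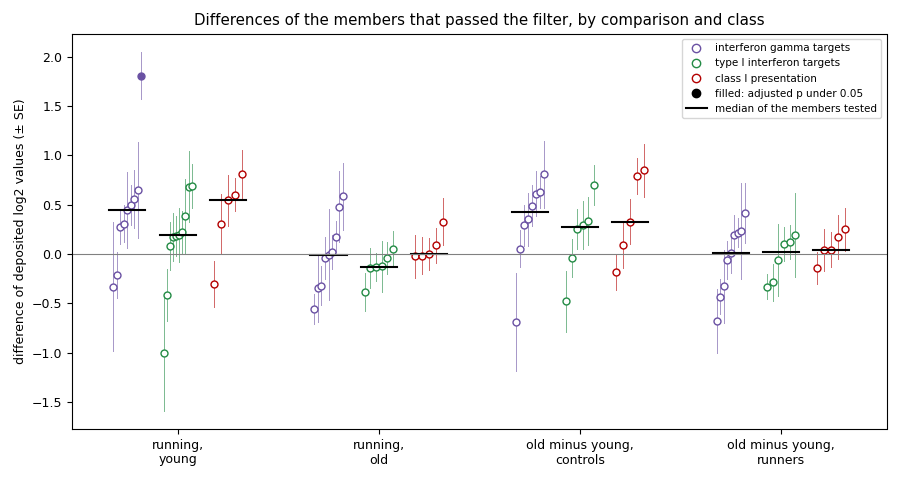
Differences on the deposited log2 scale ± SE (vertical axis) of the members that passed the filter, by comparison (horizontal axis) and class (colour), sorted within a class, with a bar at the class median. Gbp10 in young runners, at 1.81, is the only filled point (adjusted p under 0.05), and class medians lie between 0.19 and 0.54 for running in young mice and between 0.28 and 0.42 for old against young controls.

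Gamma and type I targets were set side by side by the mean deposited value of all class members in a library, without a test. With running at 4 months this score was higher by 0.44 for the gamma class, 0.21 for the type I class and 0.42 for class I genes. Between controls it was higher in old mice by 0.27, 0.17 and 0.35. In both comparisons the class I scores of the groups did not overlap (young runners 9.87 to 10.43 against 9.65 to 9.85, and old controls 10.12 to 10.66 against 9.92 to 10.11), whereas the gamma and type I scores overlapped. By summed normalised reads the class I genes overlapped in both, with 7532 to 10441 in young controls, 7543 to 14862 in young runners and 8661 to 13441 in old controls. With running in old mice the differences were 0.05, 0.04 and 0.11, and between runners -0.05, 0.03 and 0.07, all with overlap. On log2 CPM of the recovered reads the differences with running in old mice were 0.52, 0.67 and 0.34, and quantile normalisation turned that of the type I class to -0.16. On the same CPM scale those at 4 months were 1.51, 0.90 and 0.78, and those between controls 0.82, 0.52 and 0.64. On that scale 0 against a few reads of a low member also moves a score. A smaller score difference of the type I class is not comparable in size, since the deposited scale compresses low values and most of that class is low.

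The scarce members had reads in some libraries of a group and none in others. A read was missing in at least 1 library for 22 members, among them 13 type I genes and 8 gamma targets, and 13 members passed the filter of no comparison: Gbp3, Gbp5, Gbp8, Gbp9, Ifi44, Ifit2, Isg15, Isg20, Oasl2, Bst2, Xaf1, Eif2ak2 and Tap1. By counting error alone, a library without a read allows up to 3 reads of a gene, 2.09 to 5.03 normalised reads. Of the 22, O3ex and O4ex held all, Y4ex 21, Y1ex and Oc3 20, and Yc4 7, Oc1 8 and Y3ex 9. Isg15 had 0, 0, 0.701 and 8.83 reads in the young controls, 116, 6.26, 0 and 20.1 in the young runners, 49.4, 0, 108 and 21.9 in the old controls and 5.03, 21.6, 115 and 124 in the old runners. Ifit1 had 0, 51.3, 0.701 and 67.4, then 107, 76.9, 0 and 71.7, 0, 76.6, 234 and 65.7 and 68.7, 0, 284 and 474 in the same order of groups. Viperin (Rsad2) had at most 0.803 normalised reads in any young control and 314, 132, 0 and 51.6 in young runners, 0, 0, 102 and 29.6 in old controls and 53.6, 0, 190.1 and 152 in old runners. High libraries of these antiviral genes occur in 3 of the 4 groups, and each of those groups also has a library at 0 for Ifit1 and Rsad2. Tap1, which pumps peptides with Tap2, ran from 0 to 199, Gbp2 from 0 to 342 and Gbp4 from 0 to 309 reads.

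The 5 libraries with the highest endothelial marker sums each held at least 20 of the 22 scarce members. The 11 endothelial markers, such as Pecam1 and Cldn5, summed to 4643 normalised reads in Oc3, 5671 in Y1ex, 4539 in O3ex, 3014 in Y4ex and 2727 in O4ex, and to between 297.9 and 1673 in the other 11 libraries. The order was not the same throughout: Yc8 held 19 of the scarce members at an endothelial sum of 966, Oc1 8 at 1673, and in Yc5 the scarce members summed to 2181 reads, above Y4ex (1744), at an endothelial sum of 1131. Over all genes, a read was present for 17003 genes in O3ex, 16579 in Y4ex, 15614 in O4ex, 15085 in Oc3 and 14831 in Y1ex. The libraries with the fewest scarce members had 12692 (Oc1), 12696 (Y3ex) and 13801 (Yc4). That order differed too: Yc5, with 17563, held 13 of the scarce members. The part of gene detection in this pattern was not tested. By group the endothelial sums ran from 297.9 to 1131 in young controls, 1509 to 5671 in young runners, 499 to 4643 in old controls and 995 to 4539 in old runners. All 8 markers tested were positive with running in young mice (median 1.18) and 0 passed. An unadjusted p under 0.05 was found for 5 of them, against 8.85% of all genes higher and 17.4% either way. The 8 markers of fibro-adipogenic progenitors, cells of the muscle's connective tissue, summed to 14.4 to 567 in young controls, 3978 to 11742 in young runners, 210.4 to 1760 in old controls and 1842 to 3901 in old runners. In young runners all 5 tested were positive (median 2.18) and 3 passed, Dcn (3.25, adjusted p = 0.019), Gsn (3.39, adjusted p = 0.019) and Col1a2 (2.18, adjusted p = 0.0038). Gbp10 was called in the same comparison. In old runners, where no member was called, all 3 tested were positive (median 1.28) and 0 passed. Each of the 3 had an unadjusted p under 0.05, against 17.4% of all genes either way. A marker could also pass the filter through 1 group alone, so the marker counts describe and do not test. The 11 macrophage markers summed to 587 to 2579 in young controls, 929 to 2857 in young runners, 395 to 1180 in old controls and 556 to 1602 in old runners. Of these, Mrc1 was lower in old than in young controls (-1.56, adjusted p = 0.0448), from 207 to 356 reads in young controls to at most 48.2 in old ones. The part of these cells in the differences of the members was not tested. Y3ex, with 918 Gbp10 reads, had an endothelial sum of 1509 and a fibro-adipogenic sum of 3978. In each of these it was the lowest young runner and lay above every young control. Other libraries followed another order. Y2ex had the most Gbp10 reads of the young runners (1186) at sums of 1566 and 5590, while Y1ex had the highest sums (5671 and 11742). Of the old runners, O1ex had the most Gbp10 reads (1590.4) at sums of 1264 and 3901. O3ex had the fewest (213) at sums of 4539 and 3644. A link of Gbp10 to these sums was not tested.

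**Figure D4:**
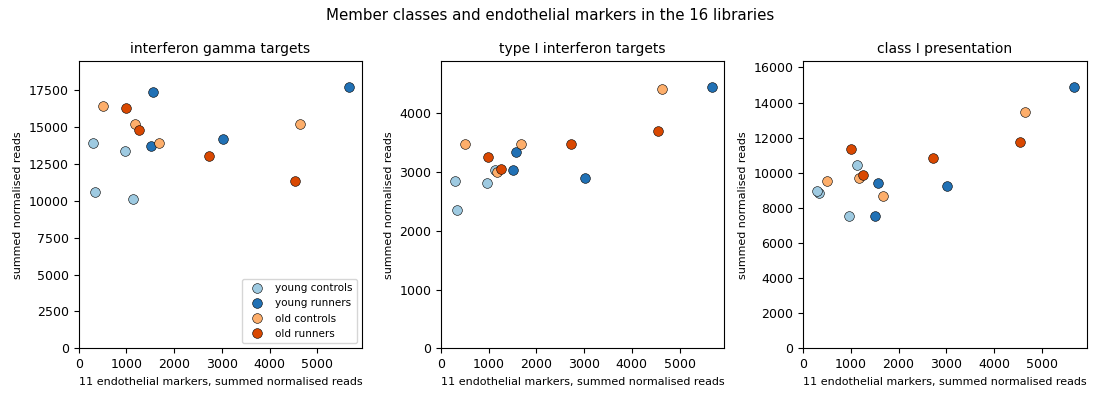
Summed normalised reads of each member class (vertical axes, from 0) against the sum of 11 endothelial markers (horizontal axis) in the 16 libraries, coloured by group. Y1ex, at 5671 on the horizontal axis, has the highest sum of all 3 classes, while the gamma sum of O3ex, at 4539, is 11368, above Yc4 and Yc5 alone.

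Of the ligands, interferon gamma (Ifng) had reads in 1 library, at 6 normalised reads, and the 7 type I and lambda interferon genes listed had no row. Of 9 receptor and kinase genes 6 were tested, and none passed in any comparison. Both receptor chains of interferon gamma were present in every library, Ifngr1 at 490.1 to 1256 and Ifngr2 at 5023 to 8282 reads, as was Ifnar1, at 114 to 488, while Ifnar2 was missing from 1 library. Irf8, a factor of immune cells, differed by 0.60 with running at 4 months (adjusted p = 0.129). Of 6 brakes 5 were tested, and 1, Socs3, an inhibitor of JAK signalling, fell in young runners from 53097 to 18427 mean reads (-1.59, adjusted p = 0.0412). In old runners Socs3 differed by -0.78 (adjusted p = 0.0556).

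Other interferon-stimulated genes did not pass in any comparison. Of 46 listed 15 were tested with running at 4 months, with 10 positive, a median of 0.52 and 6 higher at an unadjusted p under 0.05, Ly6e (0.90, adjusted p = 0.0942) and Cd274 (1.15, adjusted p = 0.133) first. At that threshold 8.85% of all genes were higher in this comparison and 17.4% differed either way. Between controls 6 of 11 were positive, with Samhd1 (0.63, adjusted p = 0.228) and the chemokine gene Cxcl10 (1.70, adjusted p = 0.229) first. In old runners 8 of 13 were positive. Of the sensors and adaptors 3 of 11 were tested and none passed. Among other class I genes Pdia3, a disulphide isomerase of the peptide-loading complex, rose in young runners (0.82, adjusted p = 0.0474), and the chaperone calnexin (Canx) rose in old runners (0.89, adjusted p = 0.0302). Both also fold proteins other than class I. The 7 class II genes summed to between 37.7 and 369 reads in a library, and 1, H2-DMa, passed the filter and was tested in the comparisons with young controls and none in the others. Of the immunoproteasome, Psmb8 and Psmb9 had at most 33.0 and 36.8 reads, and Psme1, Psme2 and Psmb10 were tested without a call.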

How the data were processed

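Bulk RNA-seq of 10 ng total RNA per library used the SMART-Seq v4 chemistry, which keeps no strand. The submitters' processing notes name Trim Galore, STAR, featureCounts of Subread, DESeq2 and the mm10 build. Tool versions and the annotation are not given in the sources used here. Per these notes and the values, the deposited tables hold log2 levels that the authors variance-stabilised separately in 4 tables of 1 pair of groups each. Inverting this transformation gave whole reads (100% within 0.02), which the normalised reads and depths come from. Counting intervals cover counting error only, since PCR copies were not removed.

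Pairs were tested with limma 3.58.1 (R 4.3.3, trend, 2-sided, Benjamini-Hochberg over all genes tested, threshold 0.05). The procedure was tested on simulated data. Symbols were matched to GENCODE M21 (22254 matched). Control columns, O4ex and Y4ex could be matched to their group and not to 1 sample each. Each table holds 21 symbols turned into dates, which are not named. Values in every library are given for members called or with an unadjusted p under 0.05 in any comparison and for the most abundant of each class, with H2-D1, Isg15, Ifit1 and Rsad2 chosen after their values were seen. The members, classes and lists were chosen with earlier results of these data known.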

Additional observations from a re-analysis of the deposited data

Results flagged for a closer look

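In young runners, the library Y3ex stood apart from the other 3 for Gbp6. Its deposited value was 7.5624 on the log2 scale of the table of young runners and young controls, where the others were 8.5465, 8.5816 and 8.6251. The gap took 0.926 of the range of the group, above Dixon's critical value for 4 samples. It was 1 of 56 groups of 4 values examined, and chance flags about 1 in 20 groups. Y3ex had 13 members without a read, next to 1, 2 and 4 in the other young runners. Its endothelial marker sum was 1509, next to 1566 in Y2ex, 3014 in Y4ex and 5671 in Y1ex. The part of either in the Gbp6 value was not tested.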

How the results depend on the processing

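The count of members called with running at 4 months (1) ran from 0 to 2 when single libraries were left out and stayed at 1 under the other 8 alternatives. It was 0 without Y2ex, Y4ex, Yc5, Yc7 or Yc8 and 2 without Yc4, where B2m passed too. In the other comparisons and in the model of running by age the count was 0 under every alternative. Gbp10 kept its direction under 16 of 16 alternatives and its call under 11 (adjusted p 0.00479 to 0.0985, limma). Over all comparisons 75 of the 102 differences of members tested kept their sign under every alternative. The other 27, none above 0.35 in size, changed sign under at least 1, 11 of them with running in old mice.

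On voom's log2 CPM of the recovered reads, which do not compress low levels, class score differences were larger. With running at 4 months they were 1.51 (gamma), 0.90 (type I) and 0.78 (class I). Between controls they were 0.82, 0.52 and 0.64, with running in old mice 0.52, 0.67 and 0.34, and 0.27 for type I between runners. Quantile normalisation gave -0.16 for type I with running in old mice, against 0.04, and the cause was not tested. Counts over all genes moved with single libraries: from 81 to between 0 (without Y2ex) and 181 (without Yc4) in young runners, from 12 to between 1 and 295 (without Oc1) in old runners, and from 11 to between 3 and 52 (without Yc4) between controls. The 7 higher and 5 lower calls in old runners became 11 and 12 after median centring and 9 and 15 after quantile normalisation.

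With a replicate block on the numbers of the runners, 0 members and 0 genes were called between old and young runners, against 0 and 2 without it. The deviations of same-numbered runners correlated at -0.24, 0.09, -0.40 and -0.04, and no library correlated best with its own number, so the numbers were not taken to pair the samples. A block on the column numbers of old runners and old controls, whose titles carry other numbers, was chosen after seeing the data. It called 0 members and 0 genes, against 0 and 12 without it, and the correlations were -0.14, -0.13, 0.12 and -0.11. No paired analysis was possible for the other comparisons. Young runners and young controls share fewer than 2 numbers in titles or columns. The controls of both ages carry the same replicate numbers, but their columns could not be matched to single samples. Depth limits scarce members: genes with 0 reads in a group's library could differ below 3 reads unseen.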

Other observations

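Scarce members also differed between libraries within the old groups. The 22 members that lacked a read in at least 1 library summed to 2888 normalised reads in O3ex and 3097 in O4ex, and to 650 in O1ex and 919 in O2ex. In old controls the same sum was 2721 in Oc3 and 892 to 1330 in the other 3. O1ex, with 30.7 M reads the least deeply sequenced library, had 9 members without a read and the highest Gbp10 level, 1590.4 normalised reads. Irf1 was highest in Oc2 (5313 reads), where 11 members had no read, and Oc3, with 3486 Irf1 reads, had a read of 20 of the 22 scarce members.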
